A study of Mus musculus with 2 samples.

Results

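Interferon-stimulated effector genes are the genes that cells switch on when interferon binds its receptors. A fixed list of 49 such genes was chosen by name, with earlier results of these data known. Each of the 49 was found among the 35275 Ensembl genes of a read count table from mesenchymal stem/progenitor cells (MSPC) of mouse bone marrow. These stromal cells can give rise to bone, cartilage and fat and support blood stem cells. One library came from Ptpn11+/+ mice (control) and 1 from Ptpn11E76K/+ mice (mutant). Ptpn11 encodes the phosphatase SHP2, and the amino acid change E76K activates it. Both groups were C57BL/6 mice that carried Nestin-Cre, a transgene in which Cre is driven from nestin regulatory sequence, so Cre is present in the controls too. The labels give no age, sex, treatment or number of animals for either group. According to the labels, marrow cells that carried CD140 and Sca-1 but not CD45, Ter-119 or CD31 were sorted without culture, and RNA was enriched for polyadenylated transcripts. Replicates (2) are mentioned in the design text, whereas the counts come as 1 column per genotype.

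Type I interferons act through the receptor chains IFNAR1 and IFNAR2 and the kinases JAK1 and TYK2, which activate STAT proteins. STAT2 and IRF9 are parts of ISGF3, a complex that binds the interferon-stimulated response element (ISRE) in promoters of its target genes. Interferon gamma acts through IFNGR1, IFNGR2, JAK1 and JAK2 on STAT dimers, which bind gamma-activated sites (GAS). The products restrict viruses and intracellular bacteria by sensing foreign RNA, blocking translation, trapping particles at membranes or tagging proteins, and many cells keep a low tonic level of these genes without infection.

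Depth was 22328659 counts (control) and 18010963 counts (mutant). Levels are given as CPM, counts scaled to library size, with totals adjusted by TMM factors. With 1 library per genotype there is no replicate check and no test between genotypes, so every ratio compares these libraries. Beside each ratio stands its 95% interval (exact, Clopper-Pearson), which reflects how a gene's counts divide between the libraries and covers counting error only. A gene with at least 20 counts over both libraries was called measured, and it was called lower or higher in the mutant library when its whole interval lay beyond 2-fold. In a bulk library, fewer expressing cells and less RNA per cell cannot be told apart. Of the sort genes, Ptprc (CD45) had 1 against 12 counts and Pecam1 (CD31) 5 against 2, the control given first here and throughout. Pdgfra and Pdgfrb, the CD140 genes, were abundant in both libraries. Ly6a, which encodes Sca-1 and is itself inducible by interferon, had 2177 against 612 counts and was called lower in the mutant. Of 15 MSPC marker genes 14 were measured, with 4 called lower and 4 higher, against 8.29% and 6.98% of all measured genes. Beside Ly6a, those lower were Cxcl12 (9749 and 2162 counts), Prrx1 (5135 and 1404) and Ebf3 (148 and 23). Those higher were Nes (5192 and 10785), Kitl (265 and 862), Thy1 (206 and 398) and Mcam (48 and 197). Whether the sorted cells differed in make-up was not tested.

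Most interferon-stimulated genes were at a lower level in the mutant library, and the depth of the difference varied widely from gene to gene. The measured members numbered 40 of 49, with 16 called lower, 1 called higher and 23 not called. Called lower were 40% of the measured members, against 8.29% of the 13142 measured genes of the whole table. Called higher were 2.5% of the measured members, against 6.98% of all measured genes. Because the list was chosen with earlier results of these data known, these shares are a description and not a test. The median log2 ratio was -1.09 over the measured members and 0.01 over all measured genes. Of the 40 measured members 36 lay below 0, as did 49.7% of all measured genes. With no count minimum 42 of all 49 members did, where the signs of unmeasured members rest on few counts. Among the 28 members with at least 100 counts, 11 were called lower and 1 higher, against 7.95% and 6.7% of all genes at that depth.

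**Figure D1:**
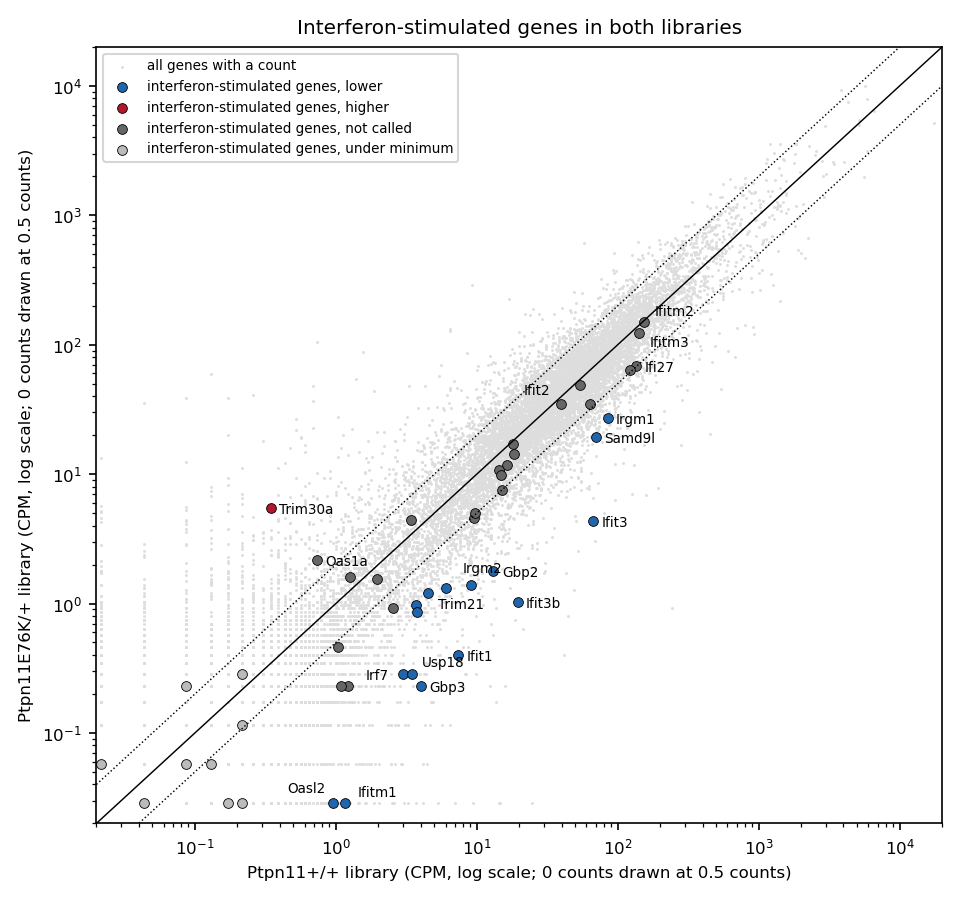
Level of each gene in the Ptpn11+/+ library (x axis) and the Ptpn11E76K/+ library (y axis), in CPM on log scales, with all detected genes in grey, the interferon-stimulated genes as larger points coloured by call, a solid line at equal level and dotted lines at 2-fold. The 16 genes called lower lie below the lower dotted line, Trim30a alone lies above the upper one as a called gene, and Ifitm2 and Ifitm3 lie near the line of equal level.

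The minimum of 20 counts shaped which genes could be called. Of the 40 measured members, 9 had under 10 counts in the mutant library and passed through the control (Ifit1, Irf7, Gbp3, Gbp7, Igtp, Usp18, Oasl2, Ifitm1 and Cmpk2), and Trim30a passed through the mutant library. Of those 9, 6 are among the 16 called lower (Ifit1, Irf7, Gbp3, Usp18, Oasl2 and Ifitm1). Of the 30 members with at least 10 counts in each library, 10 were called lower and none higher, against 7.06% and 6.23% of the 12253 genes at that depth. The measured members with the fewest counts were Oasl2 with 22 and Ifitm1 with 27, and the unmeasured members with the most were Iigp1 with 10 and Zbp1 with 7. The 9 unmeasured members were Gbp9 (2 and 4 counts), Iigp1 (5 and 5), Mx1 (1 and 0), Mx2 (4 and 0), Zbp1 (5 and 2), Oas2 (5 and 0), Oas3 (2 and 1), Oasl1 (3 and 1) and Rsad2 (0 and 1). These include classical antiviral genes such as Rsad2, which encodes viperin, and the MX GTPase genes. A level of 3 counts, the upper limit that a count of 0 allows, is 0.13 CPM for the control and 0.173 CPM for the mutant library.

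Together the 49 genes held 26475 counts in the control library, 0.119% of its total (95% exact binomial interval 0.117 to 0.12). In the mutant library they held 11873 counts, 0.0659% (0.0647 to 0.0671). The summed level was 1.68-fold lower in the mutant (1.64 to 1.71). Much of this sum comes from a few abundant genes, among them Ifitm2, Ifitm3, Ifi27 and Lgals3bp, none of which was called. The 5 members with the highest control level per kilobase of longest transcript are these genes and Ifit3. Without those 5, the summed level was 523.1 CPM in the control against 274 CPM in the mutant library, 1.91-fold lower. The 16 genes called lower summed to 6970 against 1054 counts, a direction fixed by how they were selected.

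**Figure D2:**
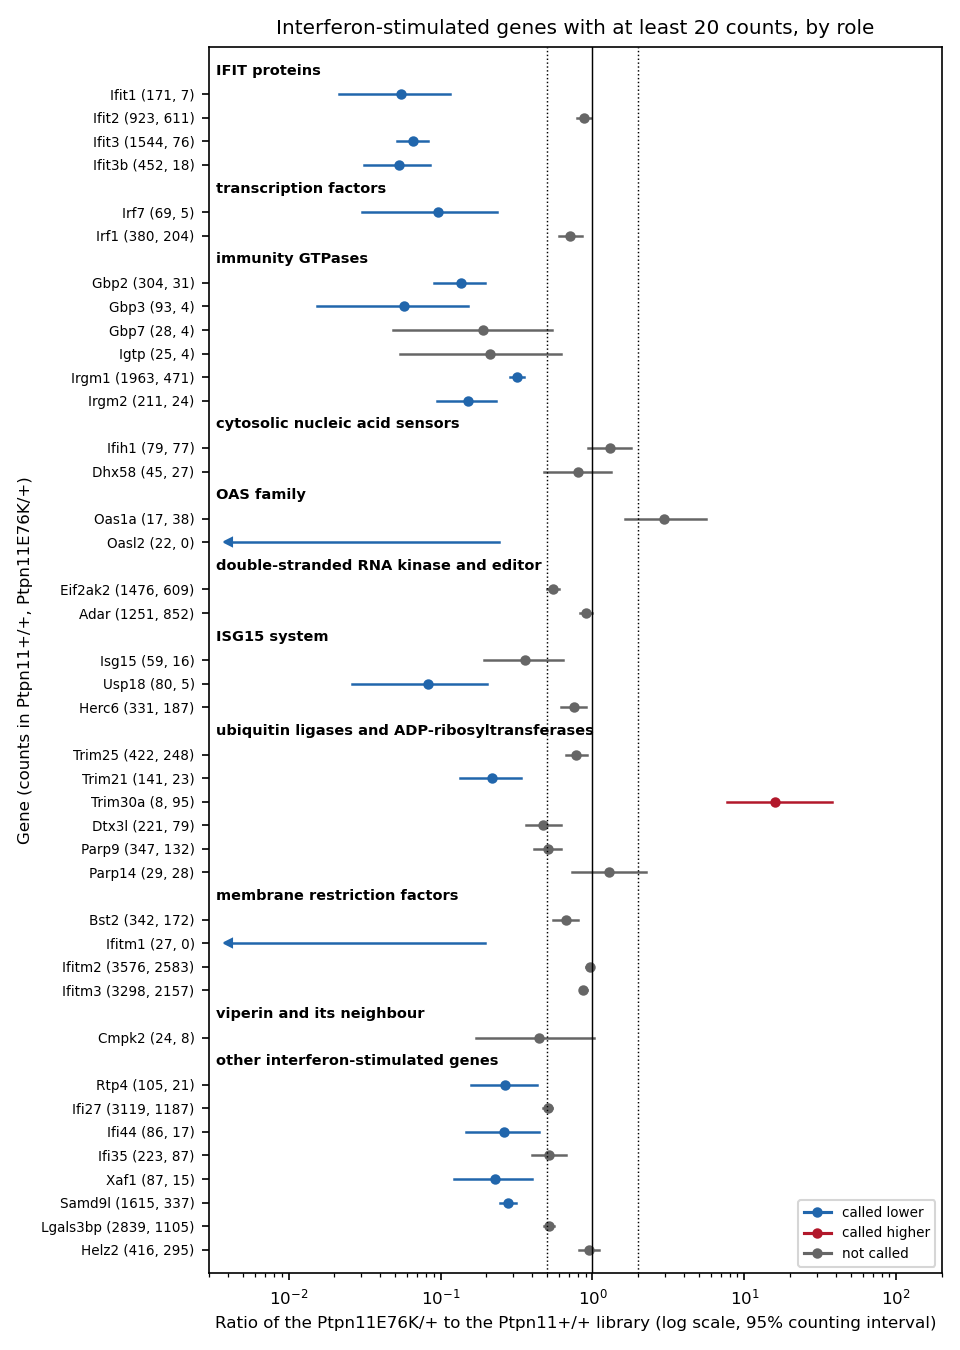
Ratio of the Ptpn11E76K/+ to the Ptpn11+/+ library (x axis, log scale) for the 40 measured genes, grouped by role, with the counts of both libraries beside each name. Points are ratios, bars are 95% counting intervals, arrows stand for genes with 0 counts in the mutant library, and dotted lines mark 2-fold. Ifit1, Ifit3 and Ifit3b, near 0.06, sit far to the left of Ifit2 at 0.88, and Trim30a at 15.8 is the only gene called higher.

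Of the IFIT proteins, IFIT1 binds viral RNA that lacks the host cap marks and so blocks its translation. Ifit3 had 1544 control counts against 76 in the mutant library and was 15.3-fold lower (12.1 to 19.5). Its close copy Ifit3b had 452 against 18 counts, an 18.9-fold difference (11.8 to 32.1). Ifit1 had 171 against 7 counts, 18.4-fold lower with a wide interval of 8.72 to 46.4, and passed the count minimum through the control only. Reads of the Ifit3 pair cannot be fully separated, because 51.2% of the 50-base windows of the longest Ifit3 transcript also occur in Ifit3b. Taken as 1 locus the pair had 1996 against 94 counts, 15.96-fold lower (12.98 to 19.85), so the direction does not depend on how their reads were divided. Ifit2 stood apart from its relatives. It had 923 against 611 counts, 1.14-fold lower (1.02 to 1.26), and its interval does not meet those of Ifit1, Ifit3 or Ifit3b. Ifit2 also shares no 50-base window with another gene.

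Promoter windows from RefSeq (GRCm38.p6, 250 bases before to 50 after a gene start) were found for 37 of the 49 genes and were searched on both strands for the core of the ISRE, spelled GAAA, any 2 bases, then GAAA again. That core occurred in at least 1 window of 20 of the 37 genes, and in 21 of their 43 windows (48.8%), against 3.44% of all 32851 mouse windows. The windows of Ifit1, Ifit3 and Ifit3b each hold a pair of matches upstream of the start that fit in a stretch of 60 bases, while neither window of Ifit2 holds one. In the stretches below, the ISRE core is in capitals, here in its reverse orientation on the gene's strand. They are shown because, of the members with at least 100 counts over both libraries, these genes were the furthest lower in the mutant. They lie at chr19:34640769-34640828 (Ifit1), chr19:34583365-34583424 (Ifit3) and chr19:34607761-34607820 (Ifit3b), all on the plus strand.
Ifit1: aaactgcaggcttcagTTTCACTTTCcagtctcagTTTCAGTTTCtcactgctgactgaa
Ifit3: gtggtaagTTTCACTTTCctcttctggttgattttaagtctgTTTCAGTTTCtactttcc
Ifit3b: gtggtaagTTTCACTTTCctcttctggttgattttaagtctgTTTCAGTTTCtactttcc
The 60 bases of Ifit3 and Ifit3b are the same. A match is a description of these letters, and its absence from the Ifit2 windows says only that the letters are not in them.

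Both transcription factors of the list were measured. Irf7, the factor that amplifies type I interferon production, had 69 control counts against 5 in the mutant library and was 10.4-fold lower (4.24 to 33.0). Irf1, which is induced by interferon gamma and by NF-kB and drives many GTPase genes, had 380 against 204 counts. Irf1 was 1.4-fold lower (1.18 to 1.67) and was not called. The intervals of Irf7 and Irf1 do not overlap, but Irf7 passed the count minimum through the control only.

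Of the 8 immunity GTPase genes 6 were measured, with 4 called lower and none higher, against 8.29% and 6.98% of all measured genes. Guanylate-binding proteins and immunity-related GTPases coat and disrupt the vacuoles of intracellular pathogens and are best known as interferon gamma targets. Irgm1, a regulator of this family and of autophagy, was the most abundant, with 1963 and 471 counts, and was 3.13-fold lower in the mutant (2.83 to 3.47). Irgm2 had 211 against 24 counts, 6.61-fold lower (4.32 to 10.6). Gbp2 had 304 against 31 counts, 7.37-fold lower (5.09 to 11.0). The difference of Gbp2 and of Irgm2 was thus larger than that of Irgm1, with intervals that do not overlap that of Irgm1. Gbp3 had 93 against 4 counts, 17.5-fold lower (6.6 to 65.5).

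Gbp7 (28 and 4 counts) and Igtp (25 and 4 counts) were 5.26-fold (1.84 to 20.7) and 4.7-fold (1.62 to 18.6) lower, and their intervals reached inside 2-fold, so they were not called. Gbp7 was called when library totals left out the 100 most abundant genes (lower bound 2.01). Members of these families share sequence: 12.3% of the 50-base windows of Igtp occur in Irgm2, and 12.8% of those of Gbp7 occur in other genes. Gbp3, Gbp7 and Igtp passed the count minimum through the control only, and the unmeasured Gbp9 and Iigp1 had slightly higher CPM in the mutant library, at 0.23 and 0.288 against 0.0865 and 0.216.

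The upstream sequence of these GTPase genes is shown because 4 genes of the family were called lower and all 6 of its members with a window hold the ISRE core. The core is in capitals, in either orientation, and a run longer than 10 capitals holds overlapping matches. Positions are chr3:142620579-142620638 (Gbp2, plus strand), chr3:142559977-142560036 (Gbp3, plus), chr11:48871421-48871480 (Irgm1, minus), chr11:58214888-58214947 (Irgm2, plus) and chr11:58199496-58199555 (Igtp, plus), in GRCm38.p6.
Gbp2: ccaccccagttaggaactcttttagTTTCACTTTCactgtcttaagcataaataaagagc
Gbp3: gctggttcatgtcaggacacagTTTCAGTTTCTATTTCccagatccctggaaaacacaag
Irgm1: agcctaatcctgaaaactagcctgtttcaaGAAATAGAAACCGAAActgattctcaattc
Irgm2: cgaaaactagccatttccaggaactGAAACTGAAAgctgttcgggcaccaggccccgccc
Igtp: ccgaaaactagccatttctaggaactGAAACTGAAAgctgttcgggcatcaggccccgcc
The stretches of Irgm2 and Igtp, which are neighbouring genes, have 29 bases in a row in common around the core.

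The GAS letters TTCNNNGAA, which read the same on both strands, occurred in a window of 11 of the 37 genes. They were in 11 of the 43 windows of the 37 genes (25.6%), against 8.3% of all mouse windows. Of the 14 genes called lower that had a window, 8 held the ISRE core and 1 (Irgm2) held GAS letters. Of the 19 genes with a window that were not called, 9 held the ISRE core and 10 held GAS letters, among them Irf1, Gbp7, Igtp and Bst2. Trim30a, the gene called higher, held an ISRE core in both of its windows. Measured genes with the core had a median log2 ratio of -1.87 (18 genes, -4.20 to 3.90), and those without it had -1.01 (16 genes, -5.37 to -0.08). These ranges overlap widely, and the lowest value belongs to Ifitm1, which had 0 counts in the mutant, so that its ratio depends on the prior count of 0.5.

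**Figure D3:**
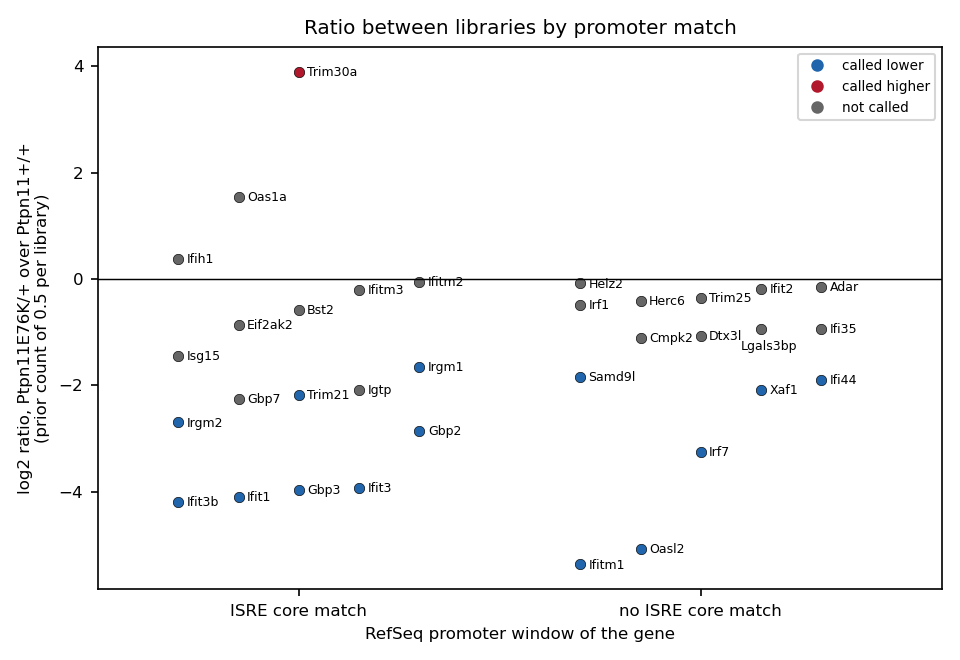
log2 ratio of the Ptpn11E76K/+ to the Ptpn11+/+ library (y axis, prior count of 0.5 per library) for the 34 measured genes with a RefSeq promoter window, split by whether a window holds the ISRE core. Each point is a gene, coloured by call; genes called lower are present on both sides, and Ifitm1 and Oasl2 at the bottom had 0 counts in the mutant library.

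Neither measured RNA sensor gene of the set was called. Ifih1, which encodes the long double-stranded RNA sensor MDA5, had 79 control counts against 77 in the mutant library. Its ratio was 1.3-fold higher in the mutant (0.935 to 1.8) and was not called. Dhx58, which encodes the related regulator LGP2, had 45 against 27 counts, 1.25-fold lower (0.761 to 2.1). A 2-fold difference in Ifih1 lies outside its interval, while for Dhx58 the interval just takes in 2-fold lower. Reads of Dhx58 may include some from an antisense gene, since 4.1% of its windows occur in Dhx58os and the strand setting of the counting is not given.

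The OAS proteins make a short oligoadenylate signal that activates RNase L, and most of their genes were hardly detected in either library. Oasl2 had 22 control counts against 0 in the mutant library, so that a floor of 3 mutant counts puts it at least 5.51-fold lower (exact bound 4.12). Oas1a went the other way, with 17 and 38 counts, and was 2.97-fold higher (1.64 to 5.62) without being called. For Oas1a, 57.6% of windows also occur in Oas1g, so its reads can be shared with that copy. The protein kinase gene Eif2ak2, whose product PKR stops translation on double-stranded RNA, had 1476 against 609 counts, 1.82-fold lower (1.66 to 2.01). Adar, which encodes the editing enzyme that converts adenosine in double-stranded RNA, had 1251 against 852 counts, 1.1-fold lower (1.01 to 1.21). Neither was called, and the exons of Adar overlap those of Chrnb2 on the opposite strand.

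ISG15 is a ubiquitin-like protein that is attached to other proteins by HERC6 in mouse and removed by USP18, which also blocks the type I receptor. Usp18 had 80 control counts against 5 in the mutant library and was 12.0-fold lower (4.95 to 38.1). Isg15 itself had 59 against 16 counts, 2.77-fold lower (1.57 to 5.16), not called. Herc6 had 331 against 187 counts, 1.33-fold lower (1.11 to 1.6). The interval of Usp18 does not overlap that of Herc6, while the interval of Isg15 overlaps both. Usp18 passed the count minimum through the control only. All 3 genes were at a lower level in the mutant. The Isg15 promoter window holds 3 overlapping ISRE cores, the most of any stretch examined, and is shown because the gene is a standard ISRE target that was not called. It lies at chr4:156200856-156200915 on the minus strand.
Isg15: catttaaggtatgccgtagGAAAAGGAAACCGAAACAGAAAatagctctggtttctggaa

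Ubiquitin ligases and ADP-ribosyltransferases went both ways. Trim21, an antibody receptor in the cytosol and ubiquitin ligase, had 141 against 23 counts, 4.61-fold lower (2.95 to 7.51). Trim25, which modifies the sensor RIG-I, had 422 against 248 counts, 1.28-fold lower (1.09 to 1.5). Dtx3l and Parp9, which encode partners in 1 complex, had 221 against 79 counts and 347 and 132 counts. They were lower by a like amount, 2.1-fold (1.62 to 2.76) and 1.98-fold (1.61 to 2.43), and neither was called. Their gene models overlap on opposite strands. Parp14, next to Dtx3l, had 29 against 28 counts, 1.28-fold higher (0.736 to 2.24).

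Trim30a was the only member called higher. This gene encodes a ubiquitin ligase known for restraining Toll-like receptor signalling, and it had 8 control counts against 95 in the mutant library, a 15.8-fold higher level (7.7 to 37.7). It passed the count minimum only through the mutant library. Markers of monocytes and macrophages were higher in the same library: of 20 markers 11 were measured, with 8 called higher (6.98% of all measured genes were) and none lower. Of the 11, 6 passed the count minimum through the mutant library only. The summed level of all 20 was 14.96 CPM in the control against 61.5 CPM in the mutant library. Lyz2 (11 and 276 counts) was the most abundant in the mutant, and Fcgr1, Ly86, Ms4a7 and Ccr2 were at 0 in both libraries. The part of these cells in the Trim30a level was not tested. Neutrophil, lymphocyte and erythroid markers, 10 genes each, summed to at most 16 counts in either library, and none was measured. Of the plasmacytoid dendritic cell markers, Siglech, Ly6d and Klk1 were at 0 in both libraries, Ccr9 had 2 against 0 counts and Irf8 3 against 11. Cox6a2 (4 and 24 counts) was called higher, while Tcf4 (4482 and 2658) and Bst2, itself a member of the set, were not called. Of 10 endothelial markers 3 were measured, and Flt1 was called higher in the mutant (14 and 290 counts). Eng (2227 and 1875) and Vwf (14 and 8) were not called. Among the unmeasured ones Kdr had 0 against 14 counts, Cdh5 0 against 3, Esam 5 against 0 and Tie1 none.

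Membrane restriction factors included the most abundant genes of the set. IFITM proteins sit in endosomal membranes and hinder the fusion of viruses. Ifitm2 had 3576 control counts against 2583 in the mutant library, a ratio 1.04-fold lower (0.989 to 1.1). Ifitm3 had 3298 against 2157 counts, 1.15-fold lower (1.09 to 1.21). Ifitm1, which lies between these genes on the chromosome, had 27 against 0 counts. With a floor of 3 mutant counts it was at least 6.77-fold lower (exact bound 5.14), and its interval does not meet those of its neighbours. Ifitm1 passed the count minimum through the control only. For Ifitm2, 48.5% of windows occur in other annotated genes, so its level may hold shared reads. Bst2, which encodes tetherin, had 342 against 172 counts, 1.5-fold lower (1.24 to 1.81), not called. Its window holds 2 overlapping ISRE cores and is shown as that of a gene with the motif and a small difference, at chr8:71537565-71537624 on the minus strand.
Bst2: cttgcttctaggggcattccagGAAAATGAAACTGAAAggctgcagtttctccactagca

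Viperin and the nucleotide kinase CMPK2 are made from neighbouring genes and act together in antiviral nucleotide synthesis. Cmpk2 had 24 against 8 counts, 2.26-fold lower (0.98 to 5.81), an interval that includes equal levels. Rsad2, at 0 and 1 counts, was not measured.

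Of the remaining 8 genes, all were at a lower level in the mutant library and 4 were called. Among all measured genes 49.7% had a log2 ratio below 0 and 8.29% were called lower. Samd9l, which encodes a restriction factor that limits translation and cell growth, had 1615 against 337 counts, 3.6-fold lower (3.2 to 4.06). Xaf1, which encodes an antagonist of an apoptosis inhibitor, had 87 against 15 counts, 4.36-fold lower (2.5 to 8.12). Rtp4, which encodes a receptor transport protein, had 105 against 21 counts, 3.76-fold lower (2.34 to 6.33). Ifi44 had 86 against 17 counts, 3.8-fold lower (2.24 to 6.83), and it was not called with a 99% interval (lower bound 1.94) or without the trend of ratios over transcript length and GC content (1.88). Of these 4 genes Samd9l rests on the most reads and has the narrowest interval.

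Of the other 4 genes of this group, 3 lay close to the 2-fold line. Ifi27, whose protein sits in mitochondrial and nuclear membranes, had 3119 against 1187 counts, 1.98-fold lower (1.85 to 2.11). Lgals3bp, which encodes a secreted glycoprotein that binds galectins, had 2839 against 1105 counts, 1.93-fold lower (1.8 to 2.07). Ifi35 had 223 against 87 counts, 1.93-fold lower (1.5 to 2.5), and Helz2, a helicase gene, had 416 against 295 counts, 1.06-fold lower (0.911 to 1.24). None was called, but Ifi27 and Lgals3bp were called without the length and GC trend (2.39-fold and 2.23-fold), and Ifi27 also when totals left out the 100 most abundant genes (2.16-fold).

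Levels between genes were compared per kilobase of the longest transcript. In the control library Ifitm2 was highest at 236 CPM per kilobase, followed by Ifitm3 at 210.3, Ifi27 at 138, Lgals3bp at 52.7 and Ifit3 at 38.3. The first 4 kept their order in the mutant library, at 226.8, 183, 69.9 and 27.3 CPM per kilobase. Ifit3 held rank 5 of the 49 genes in the control and rank 14 in the mutant library, at 2.51 CPM per kilobase there. Bst2 held ranks 7 and 5, at 18.7 and 12.5 CPM per kilobase. Of the 20 genes with the highest level per length in the control 6 were called lower, and of the next 20 genes 10 were. Of all measured genes 8.29% were called lower. Among those 10, Irf7, Gbp3, Usp18, Oasl2 and Ifitm1 passed the count minimum through the control only. The control level sets this order and also enters each ratio, so the split is a description.

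**Figure D4:**
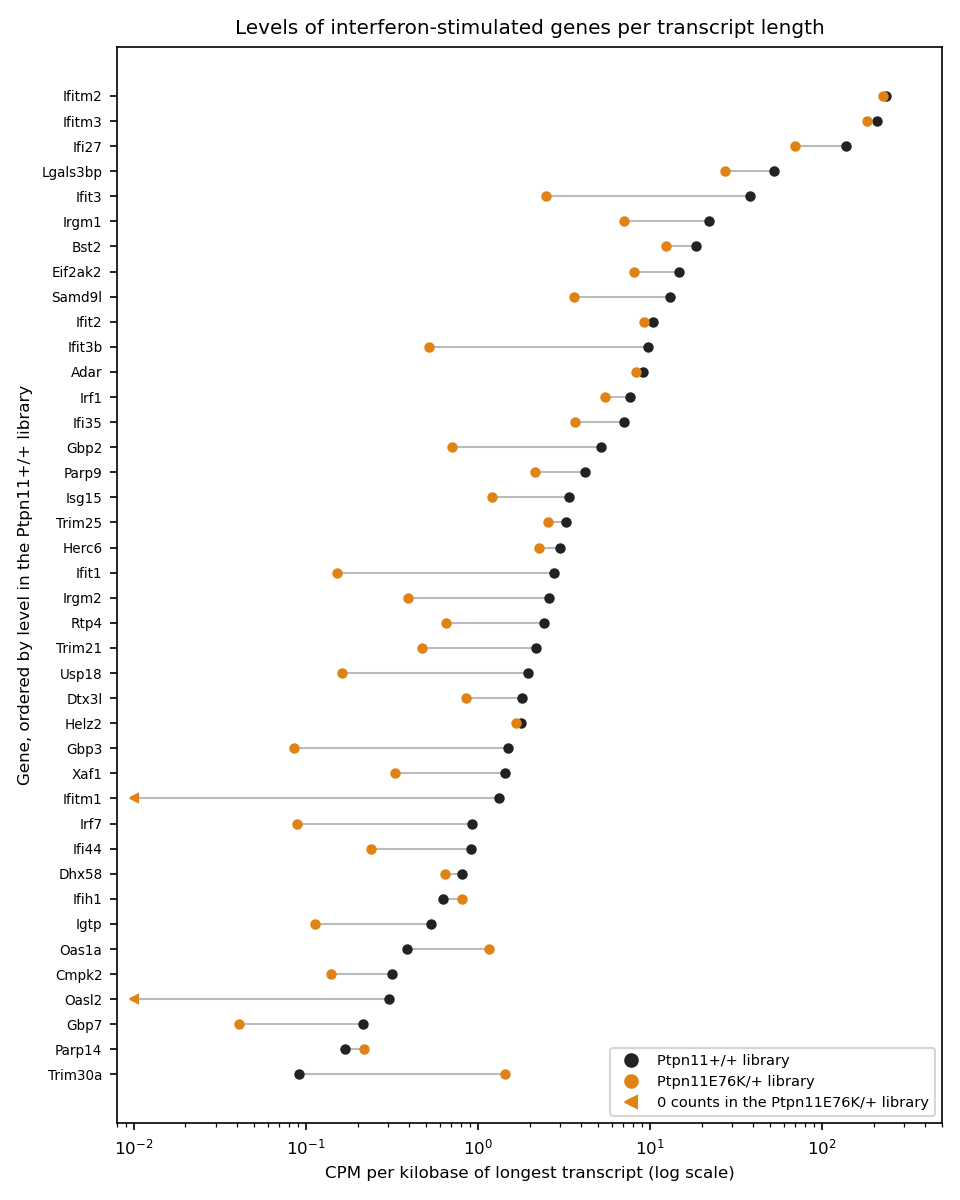
Level of each measured gene in CPM per kilobase of longest transcript (x axis, log scale) in the Ptpn11+/+ library (black) and the Ptpn11E76K/+ library (orange), ordered by the control level. Long lines such as those of Ifit3, Ifit3b, Ifit1 and Gbp3 mark genes with a large difference, while Ifitm2, Ifit2, Adar and Helz2 show nearly coinciding points; Ifitm1 and Oasl2 had 0 counts in the mutant library and are drawn as triangles at the left edge.

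Genes that sit side by side did not always differ alike. The RefSeq gene order places 10 pairs of members next to each other. Ifit3 was 15.3-fold lower and its neighbour Ifit2 1.14-fold lower, and Ifitm1, without a count in the mutant library, lies between Ifitm2 and Ifitm3, which were near equal. The intervals of Dtx3l and Parp9 overlap, and so do those of Igtp and Irgm2. Both Gbp3 and Gbp7 were at a lower level in the mutant, with overlapping intervals.

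Interferon pathway genes outside the effector set were compared from lists of ligands, receptors and kinases, STAT and IRF factors, induction pathway genes and inhibitors. Among 49 such genes with a row, the 33 measured ones split into 4 called lower, 1 called higher and 28 not called, where 8.29% of all measured genes were called lower and 6.98% higher. The 4 were Stat2, Irf9, Ddx58 and Ikbke, and the 1 called higher was Cgas. Transcripts of the interferons themselves were at or near 0: of 11 ligand genes 8 had no count in either library, Ifnb1 and Ifne had 0 and 1, and Ifnz, whose family holds many near-identical copies, had 10 and 0.

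None of the 9 receptor and kinase genes was called. Ifnar1 had 2185 against 1255 counts, 1.31-fold lower (1.22 to 1.4). Ifnar2 was 1.11-fold higher (0.975 to 1.25), Ifngr1 1.04-fold higher (0.951 to 1.15) and Ifngr2 1.09-fold higher (1.02 to 1.17). Jak1 was 1.09-fold higher (1.06 to 1.13), Jak2 1.5-fold lower (1.36 to 1.66) and Tyk2 1.65-fold lower (1.46 to 1.87). Il10rb, which encodes a chain of the interferon lambda receptor, was 1.13-fold higher (0.961 to 1.32). None of these 8 intervals reached 2-fold in either direction. The other chain gene of that receptor, Ifnlr1, had 18 against 42 counts and was 3.1-fold higher (1.75 to 5.73), the largest difference among the 9 genes. Of the genes for parts of ISGF3, Stat2 had 924 against 192 counts and Irf9 785 and 176, and both were called lower.

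In the induction pathway, Ddx58, the gene of the RNA sensor RIG-I, had 1240 against 338 counts, 2.76-fold lower (2.44 to 3.12). Ikbke, which encodes the kinase IKK-epsilon, had 601 against 120 counts, 3.77-fold lower (3.09 to 4.62). Cgas, the cytosolic DNA sensor gene, had 100 against 249 counts, 3.31-fold higher (2.62 to 4.22). Its partner Tmem173, the STING gene, had 367 against 393 counts, 1.42-fold higher (1.23 to 1.65). The RIG-I gene and the MDA5 gene Ifih1 thus differed from each other, with intervals that do not overlap. Among inhibitors of the pathway, Socs1 had 84 against 69 counts, 1.09-fold higher (0.783 to 1.52), and Socs3 had 1603 against 730 counts, 1.65-fold lower (1.51 to 1.8).

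**Figure D5:**
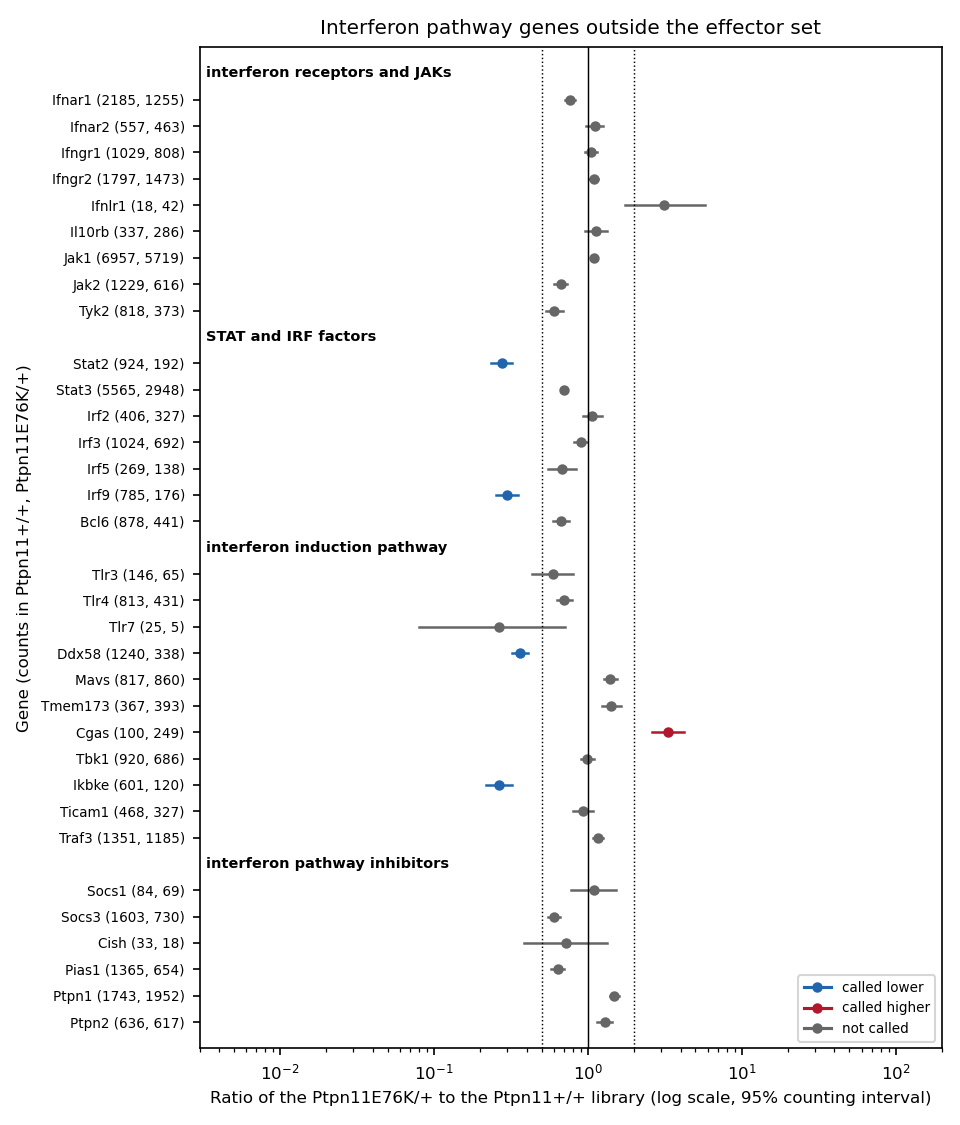
Ratio of the Ptpn11E76K/+ to the Ptpn11+/+ library (x axis, log scale) for the 33 measured interferon pathway genes outside the effector set, grouped by list, with the counts of both libraries beside each name. Points are ratios and bars 95% counting intervals, dotted lines mark 2-fold; the receptor and kinase genes other than Ifnlr1, at 3.1, lie between 0.607 and 1.13, while Stat2, Irf9, Ddx58 and Ikbke lie below 0.5 and Cgas lies above 2.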

How the data were processed

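The authors deposited raw read counts per Ensembl gene for 1 library per genotype. The submitters' processing notes name CASAVA, TopHat, edgeR and the build mm9, with no versions. The counter, annotation and strand setting were not given in the sources used here. Gene symbols came from the supplied name table, which left 785 identifiers unnamed. Transcript lengths, GC content and shared 50-base windows came from GENCODE M21, and promoter windows and gene order from RefSeq GRCm38.p6, another build than mm9. Totals were scaled by TMM in edgeR 4.0.16 (factors 1.0358 for the control and 0.9654 for the mutant library). Exact intervals were computed in SciPy 1.17.1, and log2 ratios used a prior count of 0.5 per library. The procedure was tested on simulated data with counting noise only, which hold no variation between animals or libraries. One pathway gene is not reported here. All members are accounted for, full ratios are given for members called or with at least 100 counts and for others described by role, and the members and lists were chosen with earlier results of these data known. Alternatives were other scalings (DESeq2 1.42.0 among them), count minimums, thresholds, interval levels, prior counts, a length and GC trend, and leaving out 5 members with close paralogs.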

Additional observations from a re-analysis of the deposited data

How the results depend on the processing

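The 1 member called higher and the 4 pathway genes called lower were the same in number under every other scaling and without the length and GC trend. The number of members called lower was 16 with total counts, DESeq2 size factors and upper-quartile factors. Of all measured genes 9.6%, 8.26% and 8.6% were called lower in these settings. The number was 18 with totals that left out the 100 most abundant genes (10% of all measured genes) and 17 without the length and GC trend (7.88%). Of the 16 genes, 15 were called under all 5 of these settings, Ifi44 being the exception. Beyond 4-fold 10 members were called lower, where 2.02% of all measured genes were, and beyond 1.5-fold 24 were called lower and 2 higher, Oas1a being added to Trim30a, against 15.6% and 15.7% of all measured genes. The median log2 ratio of members was -1.193 with total counts, -1.218 with totals that left out the most abundant genes and -1.233 without the length and GC trend. It was -0.979 at a minimum of 50 counts, -0.964 at 100 and -0.982 with no minimum. Totals that left out the most abundant genes moved the median of all genes to -0.121 and the share of higher calls from 45.7% to 35.6%, and with total counts that share was 37.5%. No paired analysis was possible because each genotype has 1 library, and for the same reason no library could be left out. Members under 20 counts, such as Mx1, Mx2 and Rsad2, were too shallow for a ratio.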
